A study of Mus musculus with 4 samples.

Results

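The Adamts and Mmp families of matrix proteases, the Adamtsl proteins related to them and the Timp inhibitors were followed across the nuclei of 4 mouse hearts. Members were taken by name alone, as every gene whose symbol is Adamts, Adamtsl, Mmp or Timp followed by a number and at most 1 letter. This gave 51 of the 21884 genes counted, made up of 19 Adamts, 5 Adamtsl, 23 Mmp and 4 Timp genes.

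Adamts and Mmp proteins are zinc-dependent proteases that are secreted or anchored in the cell membrane and cut collagens, proteoglycans and other proteins of the extracellular matrix. Adamtsl proteins carry the accessory domains of Adamts proteins without the protease domain and are known as components of fibrillin microfibrils, and Timp proteins bind and block the active site of Mmp and some Adamts proteases. In the injured heart these families act on the collagen and proteoglycan matrix that fibroblasts lay down, and their balance is a known part of scar formation and of remodelling.

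The hearts came from male wild-type C57BL/6J mice. All 4 animals had been injured themselves on day 1 after birth, and each heart was taken whole 21 days after that injury. The fathers of 2 animals had been injured (injured-father libraries 1 and 2) and those of the other 2 had not (uninjured-father libraries 1 and 2), so no heart was free of injury. Each library held the nuclei of 1 snap-frozen heart, sorted with a Ter119 antibody against blood cells and loaded at a target of 10000 nuclei. Nothing in the sources used here says which father or litter each animal had, so p-values measure only the spread between these 4 hearts. Values of the 4 libraries are given throughout in the order injured-father 1, injured-father 2, uninjured-father 1, uninjured-father 2, called library order.

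After filtering, 8251, 9537, 9416 and 6791 nuclei remained in library order, with 23551067, 32862239, 31467616 and 15651493 UMIs (unique molecular identifiers, each standing for 1 captured RNA molecule). Uninjured-father library 2 was the shallowest at a median of 1860 UMIs per nucleus, against 2129 to 2665 in the other libraries. Doublets were 9.62% to 14.9% of the nuclei and were removed, and any pair of libraries shared 14 to 22 barcodes, at most 0.309% of the smaller library. Clustering gave 25 clusters, of which 23 took the name of 1 of 13 classes by marker genes and 2 stayed unnamed. Names mean likeness by those markers, such as a summed level of 11 macrophage markers of 7411 to 11085 CPM in macrophage-like nuclei against 44.6 to 52.9 CPM in cardiomyocyte-like nuclei. CPM stands for the UMIs of a gene per 1000000 UMIs of the same group of nuclei in the same library. Levels are compared for 1 gene between groups of nuclei and not between genes, since they carry no correction for transcript length.

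Of the 51 members, 49, 49, 48 and 46 had at least 1 UMI in library order. A total of 31 members had at least 200 UMIs over all nuclei and 20 had fewer. Of these 20, 10 are a run of Mmp genes on mouse chromosome 9, between positions 7272514 and 7699585 of the GRCm38 build (GENCODE M21 annotation). These are Mmp13, Mmp12, Mmp1b, Mmp3, Mmp1a, Mmp10, Mmp8, Mmp27, Mmp20 and Mmp7, which include the interstitial collagenases, the stromelysins, matrilysin and macrophage elastase. They had 1 to 166 UMIs each and 391 together, which is 0.157% of the UMIs of all members.

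Promoters of 3 of these chromosome 9 genes are shown because they hold letters that, among the 36 members with a promoter window, were found in genes of this run alone, and because Mmp12 is 1 of the 2 members called between father groups below. The windows are the 250 bases before each RefSeq transcription start on GRCm38.p6, 5′ to 3′ on the gene's strand. Capitals mark TGAGTCA or its reverse complement TGACTCA, the letters of an AP-1 element, and TATAAA within the last 60 bases.
Mmp13, chr9:7272264-7272513, plus strand: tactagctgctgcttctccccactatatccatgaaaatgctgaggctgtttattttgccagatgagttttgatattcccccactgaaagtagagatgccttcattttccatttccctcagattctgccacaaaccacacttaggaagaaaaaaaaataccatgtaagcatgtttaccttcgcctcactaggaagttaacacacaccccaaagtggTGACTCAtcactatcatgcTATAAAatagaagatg
Mmp3, chr9:7445572-7445821, plus strand: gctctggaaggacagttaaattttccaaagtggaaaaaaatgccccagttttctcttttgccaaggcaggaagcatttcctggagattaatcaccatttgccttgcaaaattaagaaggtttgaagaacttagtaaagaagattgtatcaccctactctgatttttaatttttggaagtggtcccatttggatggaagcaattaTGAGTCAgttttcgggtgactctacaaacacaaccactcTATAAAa
Mmp12, chr9:7347124-7347373, plus strand, before the downstream one of its starts in that table: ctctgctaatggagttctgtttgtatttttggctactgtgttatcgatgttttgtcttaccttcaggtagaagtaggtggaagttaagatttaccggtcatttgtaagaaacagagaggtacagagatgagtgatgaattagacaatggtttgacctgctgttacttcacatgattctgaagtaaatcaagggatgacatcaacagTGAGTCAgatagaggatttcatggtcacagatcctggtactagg
The AP-1 letters began 35 bases before the start in Mmp13, 46 in Mmp3 and 44 in Mmp12. They were present in 7 of the 39 member windows (17.9%, 36 genes matched), all of chromosome 9 genes (Mmp1a, Mmp1b, Mmp3, Mmp7, Mmp10, Mmp12 and Mmp13), against 4.46% of all 32851 windows. The windows before the upstream Mmp12 start (chr9:7344147-7344396) and before the downstream Mmp7 start lacked them. TATAAA stood in 9 member windows (23.1%, against 2.87% of all windows), and 6 held both (15.4%, against 0.256%). A match describes these letters and is not evidence of binding in the hearts.

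Fibroblast-like nuclei held the largest share of these transcripts. They had 47.2% of the members' UMIs but 20.7% of all UMIs, so that the members together made up 5500 CPM there. Cardiomyocyte-like nuclei held 19.3% of the members' UMIs and 46.9% of all UMIs (990 CPM), vascular endothelial-like nuclei 14.5% and 12.5% (2780 CPM), and macrophage- or monocyte-like nuclei reached 1077 CPM. Over all nuclei the members made up 2271, 2482, 2403 and 2473 CPM in library order. Among the 8 classes with at least 50 nuclei in every library, 18 of the 31 members with at least 200 UMIs were highest in fibroblast-like nuclei. Another 3 were highest in vascular endothelial-like and 3 in cardiomyocyte-like nuclei, 2 each in pericyte-, endocardial- and smooth muscle-like nuclei, and 1 in B lymphocyte-like nuclei. Over all 13 classes, including 5 with fewer nuclei, 13 of the 31 were highest in fibroblast-like nuclei, 3 in lymphatic endothelial-like, 2 each in Schwann- or glial-like and mesothelial-like and 1 in adipocyte-like nuclei. Where a next class is named below, it is the next of the 8 larger classes. None of the 31 was highest in macrophage- or monocyte-like nuclei. Since 24 members were among the 3000 variable genes used for clustering, levels by class and cluster are a description and carry no test. With the members left out of clustering, all 31 had the same highest class.

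**Figure D1:**
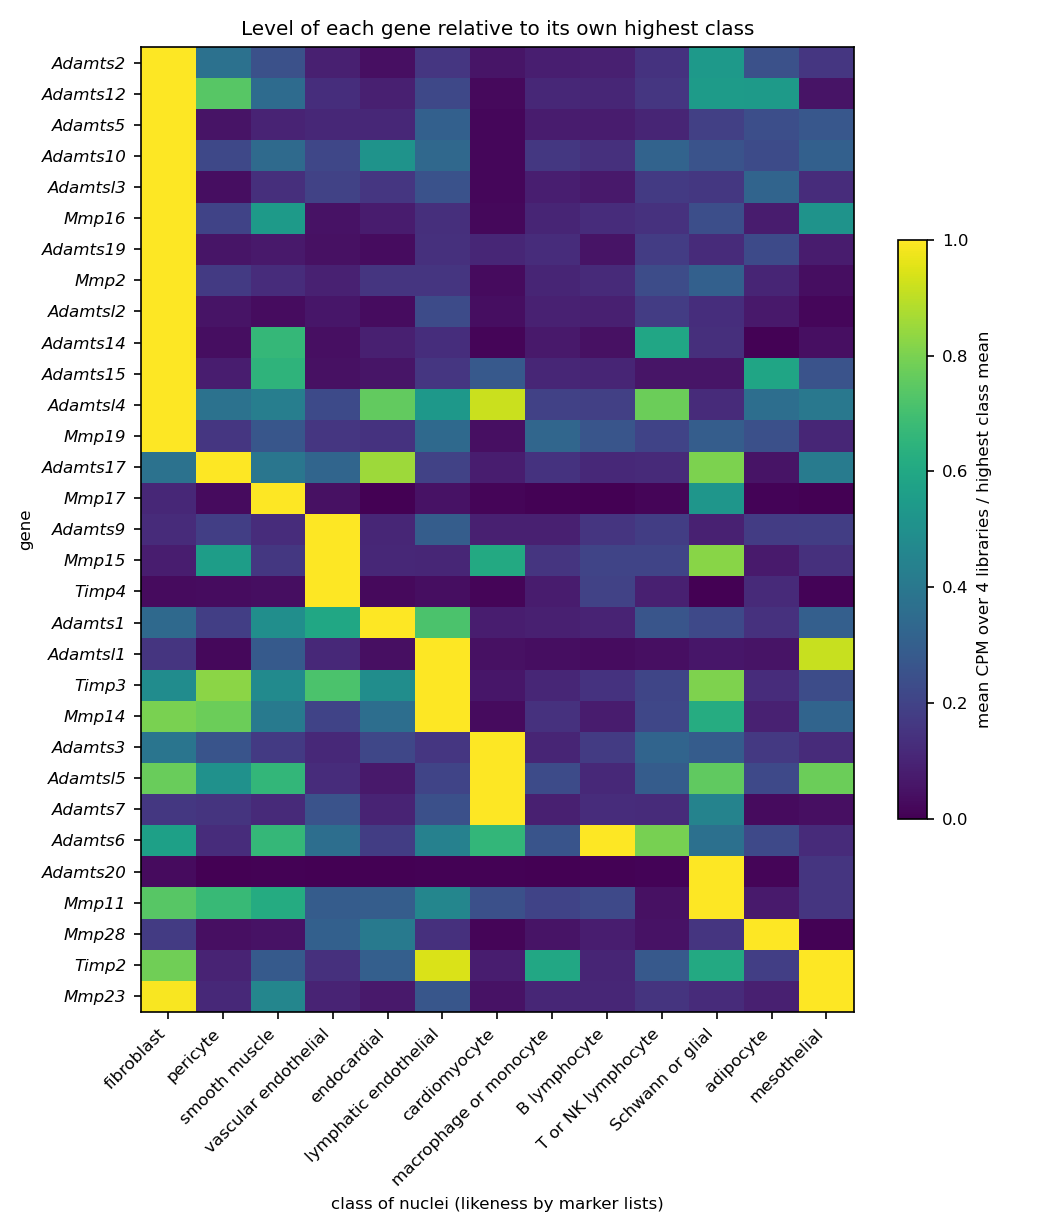
Mean CPM over 4 libraries of the 31 members with at least 200 UMIs (rows) in 13 classes of nuclei (columns), divided by each gene's own highest class mean, on a color scale from 0 to 1. The block at the upper left shows the 13 members that were highest in fibroblast-like nuclei among all 13 classes. The brightest cells further right show genes such as Adamts9 and Timp4 in vascular endothelial-like and Adamts3 in cardiomyocyte-like nuclei.

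The Adamts proteases that cut the large proteoglycans versican and aggrecan were split between fibroblast- and endothelial-like nuclei. Adamts5 reached 392, 698, 595 and 648 CPM in fibroblast-like nuclei in library order (583 ± 134, SD, n = 4), 8.86 times the vascular endothelial-like level, the next of the 8 classes, while the smaller lymphatic endothelial-like class was at 179 CPM. Adamts9 was highest in vascular endothelial-like nuclei at 833, 1141, 891 and 844 CPM (927 ± 145, SD, n = 4), 5.42 times the pericyte-like level. Both orders held in each of the 4 libraries. Adamts1, another versican-cutting protease, was highest in endocardial-like nuclei at 85.9, 96.3, 82.6 and 94.4 CPM, against 53.7 ± 8.72 (SD, n = 4) in vascular endothelial-like nuclei. Adamts15 reached 66.1 ± 9.22 CPM (SD, n = 4) in fibroblast-like nuclei. Adamts20 was at 8.46 CPM in fibroblast-like nuclei but at 350, 214, 222 and 394 CPM in Schwann- or glial-like nuclei, on 139 UMIs there. Adamts4 and Adamts8 had 122 and 114 UMIs in all.

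The 3 procollagen N-proteinases, which remove the amino-terminal propeptide of fibrillar procollagens, did not share 1 profile. Adamts2 was highest in fibroblast-like nuclei at 643, 641, 682 and 645 CPM, 2.67 times the pericyte-like level of 244 ± 40.2 CPM (SD, n = 4). These 4 values lay close together. Adamts14 also had its highest mean in fibroblast-like nuclei, at 72.6, 33.0, 94.1 and 104 CPM, which led in 3 of the 4 libraries. Smooth muscle-like nuclei were next at 50.4 CPM. Adamts3, which in addition cuts the lymphatic growth factor Vegfc, was highest in cardiomyocyte-like nuclei at 139, 124, 138 and 134 CPM, 2.57 times the fibroblast-like level of 52.0 CPM.

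Of the other Adamts proteases with high counts, Adamts10, Adamts12 and Adamts19 were highest in fibroblast-like nuclei, while Adamts17, Adamts7 and Adamts6 were highest in other classes. Adamts10, which acts on fibrillin microfibrils, stood at 531 ± 63.3 CPM (SD, n = 4) there and at 273 CPM in endocardial-like nuclei. Adamts12, which cuts cartilage oligomeric matrix protein, stood at 624 ± 70.0 CPM in fibroblast-like and 462 ± 55.4 CPM in pericyte-like nuclei (SD, n = 4 each). Adamts19, a gene linked to heart valve disease, was at 211 ± 30.6 CPM (SD, n = 4) in fibroblast-like nuclei, 7.81 times the next of the 8 classes, while the smaller adipocyte-like class was at 47.2 CPM. Adamts17 was highest in pericyte-like nuclei (292 ± 41.4 CPM) with endocardial-like nuclei close behind (249 ± 60.6 CPM, SD, n = 4 each). The difference of the means was inside the spread between libraries, but pericyte-like nuclei were the highest of the 8 classes in each of the 4 libraries. Adamts7, a relative of Adamts12 with the same substrate, was highest in cardiomyocyte-like nuclei at 47.9, 51.1, 52.5 and 58.9 CPM, 3.89 times the next of the 8 classes, with Schwann- or glial-like nuclei at 23.6 CPM. Adamts6 had its highest mean in B lymphocyte-like nuclei (253 ± 49.7 CPM, SD, n = 4, on 229 UMIs), which led the 8 classes in 3 of the 4 libraries. It was at 168 ± 9.72 CPM in cardiomyocyte-like nuclei and at 201 CPM in the smaller T or NK lymphocyte-like class.

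Adamtsl2, whose loss causes a fibrillin-related growth disorder in people, was at 136, 159, 202 and 230 CPM in fibroblast-like nuclei. This was 10.9 times the level of macrophage- or monocyte-like nuclei, the next of the 8 classes, and the smaller lymphatic endothelial-like class was at 41.1 CPM. Adamtsl3 followed the same class at 525, 464, 421 and 393 CPM, 5.06 times the vascular endothelial-like level. Adamtsl1 had a different home. It was at 255 CPM in smooth muscle-like nuclei and 138 CPM in fibroblast-like nuclei, but reached 766, 788, 1053 and 992 CPM in lymphatic endothelial-like nuclei and 764, 1262, 924 and 349 CPM in mesothelial-like nuclei, the outer lining of the heart. Both of the last classes had fewer than 50 nuclei in at least 1 library. Adamtsl5 was highest in cardiomyocyte-like nuclei (122 ± 7.63 CPM, SD, n = 4), and Adamtsl4 did not separate fibroblast-like (62.3 ± 11.2 CPM) from cardiomyocyte-like nuclei (57.4 ± 12.3 CPM, SD, n = 4 each).

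Among the Mmp genes, Mmp2, the gelatinase that also cuts denatured and basement membrane collagen, was at 159, 196, 144 and 244 CPM in fibroblast-like nuclei, 5.83 times the pericyte-like level. The 2 libraries numbered 2 were the high ones, 1 in each father group. Mmp14, the membrane protease that activates pro-Mmp2 together with Timp2, was level between fibroblast-like (117 ± 18.8 CPM) and pericyte-like nuclei (113 ± 29.8 CPM, SD, n = 4 each), and the order of the pair turned when injured-father library 1 was left out. Mmp16, a second membrane-anchored protease, was at 262 ± 13.1 CPM in fibroblast-like nuclei, and Mmp15 peaked in vascular endothelial-like nuclei at 102 ± 13.7 CPM (SD, n = 4 each). Mmp17, which is held in the membrane by a lipid anchor, was highest in smooth muscle-like nuclei (45.5 CPM), 9.09 times the fibroblast-like level and on 45 UMIs. Mmp28, or epilysin, reached 82.9 CPM in endocardial-like nuclei and 99.4, 169, 209 and 338 CPM in adipocyte-like nuclei, with 146 UMIs in the latter. Mmp9, the second gelatinase and a protease of neutrophils, had 47 UMIs in all 4 hearts, at 0.255, 0.548, 0.413 and 0.639 CPM of all nuclei.

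The inhibitors differed from one another in place. Timp3, which binds to the matrix and also blocks Adamts4 and Adamts5, was the member with the most UMIs (28465). It was at 700 ± 91.6 CPM in pericyte-like, 606 ± 58.4 CPM in vascular endothelial-like, 411 ± 40.8 CPM in fibroblast-like and 848 ± 62.6 CPM in lymphatic endothelial-like nuclei (SD, n = 4 each). Timp2 was at 261 ± 18.6 CPM in fibroblast-like and 201 ± 34.1 CPM in macrophage- or monocyte-like nuclei. The smaller mesothelial-like and lymphatic endothelial-like classes were above both, at 334 and 315 CPM. Timp4, known for its high level in the heart, was at 32.4, 118, 69.7 and 109 CPM in vascular endothelial-like nuclei, 5.05 times the next of the 8 classes, with the libraries numbered 2 again high in both father groups. Timp1, the inhibitor usually induced by acute injury, had 141 UMIs, at 4.88, 3.47, 4.26 and 2.90 CPM of fibroblast-like nuclei. Timp1, Timp3 and Timp4 each overlap a synapsin gene on the opposite strand (Syn1, Syn3 and Syn2), and the sources used here do not say whether counting used the strand.

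Fibroblast-like nuclei fell into 4 clusters, which are called by number and by the genes that lead them. Cluster 1 (Gfra1, Abca8a) held 4112 nuclei, cluster 4 (Sntg1, Il1rapl1, Ccbe1) 2423, cluster 7 (Gfpt2, Adgrd1, Pi16) 1562 and cluster 20 (Kcnma1, Thbs4, Postn) 272. The unscaled clustering that was run first gave 2 fibroblast-like clusters, with counterparts of clusters 1 and 4 but none of clusters 7 and 20, so the division into 4 depends on that setting. Of the 31 members, 12 had their highest mean in cluster 7, 8 in cluster 4, 6 in cluster 20 and 5 in cluster 1. The highest cluster was the same in all 4 libraries for 5, 4, 1 and 1 of them, respectively.

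Adamtsl3, Adamtsl4 and Timp2 were highest in cluster 7 in every library. Adamtsl3, itself among the 10 leading genes of that cluster, was at 855, 994, 856 and 732 CPM there and at 172, 168, 160 and 137 CPM in cluster 4. Adamtsl4 was at 114, 111, 103 and 130 CPM in cluster 7 and at 35.6, 30.9, 35.7 and 59.2 CPM in cluster 1. Timp2 was at 400, 432, 440 and 426 CPM in cluster 7, above every library of the other 3 clusters, the highest of which was 291 CPM. Adamts5 was at 764 ± 170 CPM in cluster 7 and 690 ± 202 CPM in cluster 1, which overlap, but only at 111 ± 25 CPM in cluster 20 (SD, n = 4 each).

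Cluster 4 carried 2 of the procollagen N-proteinases. Adamts2 was at 799, 779, 946 and 901 CPM there, against 534, 488, 530 and 509 CPM in cluster 1, and Adamts3 at 88.6 CPM against 29.9 CPM in cluster 7. The third, Adamts14, was highest in cluster 1 at 106, 50.1, 129 and 131 CPM and nearly missing from cluster 20, with 6 UMIs and 8.73 CPM. Adamtsl2 (256 CPM), Adamts17 (190 CPM) and Adamts15 (145 CPM) also peaked in cluster 4. Cluster 20, the smallest, had the highest Adamts6, a protease that acts on fibrillin microfibrils, at 304, 456, 332 and 316 CPM against 78.0 CPM in cluster 1. Timp3 (753 CPM) and Adamts12 (826 CPM) had their highest fibroblast means in the same cluster.

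**Figure D2:**
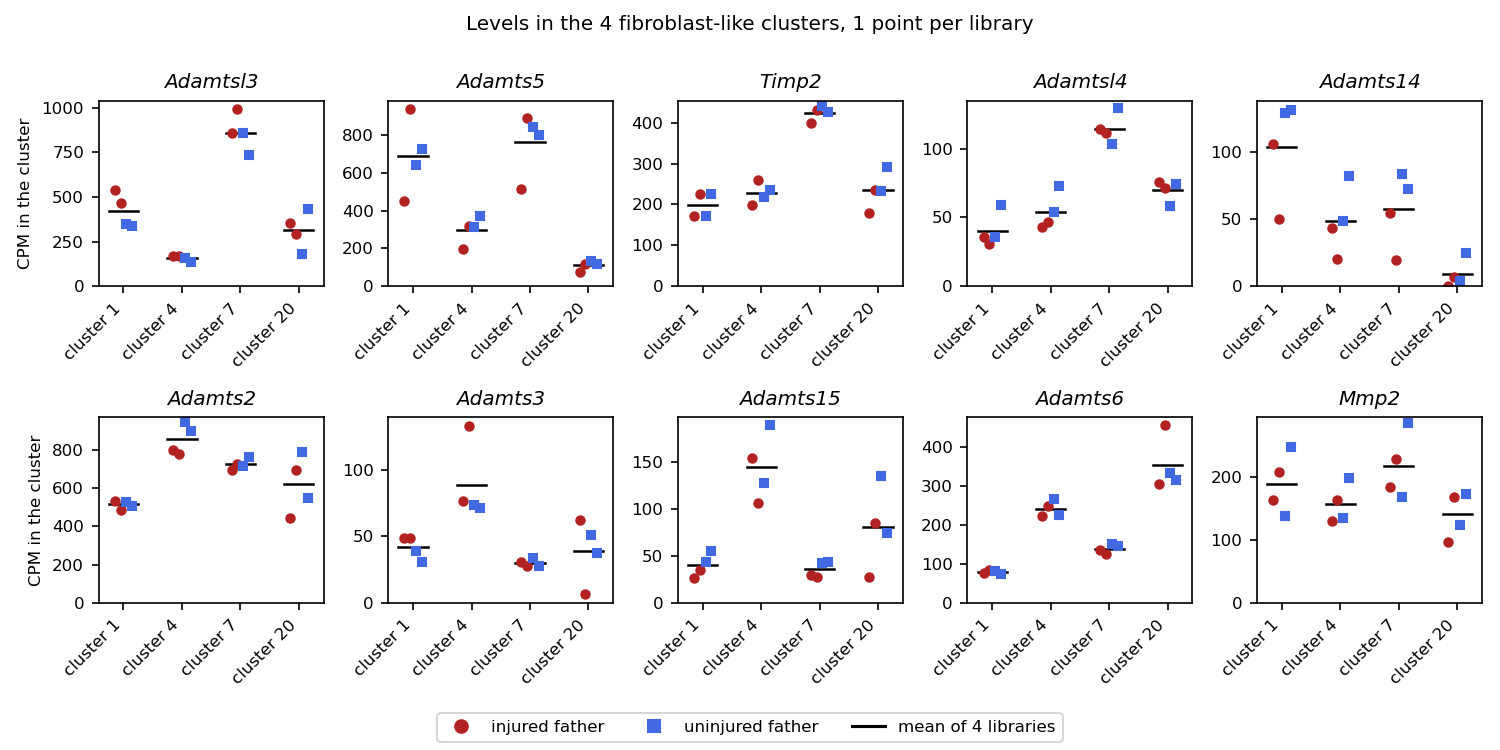
CPM of 10 members in the 4 fibroblast-like clusters, 1 point per library (circles for injured, squares for uninjured fathers) with the mean of 4 libraries as a line. Adamtsl3, Timp2 and Adamtsl4 stand highest in cluster 7 in every library, Adamts2 in cluster 4 and Adamts14 in cluster 1, while the cluster means of Mmp2 run from 141 to 217 CPM.

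Vascular endothelial-like nuclei also differed among themselves. Cluster 6 (Kirrel3, Lhx6, Vegfc) held most of the endothelial Adamtsl1, at a mean of 274 CPM against 15.2 CPM in cluster 19 (Sema3g, Gja5), 18.1 times as high. Cluster 6 also had the highest Adamts12 (132 CPM), Mmp28 (101 CPM) and Adamts17 (123 CPM, against 11.8 CPM in cluster 19). Timp4 was highest in cluster 9 (Fabp4, Btnl9, Gpihbp1), at 71.2, 181, 99.5 and 165 CPM, and at 12.8 CPM on 6 UMIs in cluster 19. Timp3 went the other way, with 1186, 973, 1035 and 1298 CPM in cluster 19 against 524 ± 45.9 CPM (SD, n = 4) in cluster 6. Adamts1 was highest in clusters 19 and 9, at 106 ± 26.4 and 96.2 ± 19.3 CPM (SD, n = 4 each), which overlap.

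Some members that were low in most cardiomyocyte-like nuclei were high in small clusters of them. Cluster 11, led by Fgf12, Kcnj3 and the atrial genes Nppa and Myl4, had Adamts19 at 195, 173, 208 and 151 CPM, against 5.23 CPM in cluster 5 (Tnnc1, Mybpc3, Myh7). The same cluster had Adamtsl1 at 167, 496, 711 and 68.5 CPM, a spread that cut across the father groups. Cluster 21, led by genes that include Cntn2, had Adamtsl2 at 53.0, 86.1, 102 and 91.6 CPM and Adamts17 at 193, 180, 168 and 169 CPM. In the main cardiomyocyte cluster 0 these genes were at 4.35 and 18.6 CPM.

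The design sets hearts with an injured father against hearts with an uninjured one. Counts were summed per library over all nuclei, over each of 8 classes and over 7 clusters of fibroblast- and vascular endothelial-like nuclei, and the 2 father groups were compared with edgeR's quasi-likelihood test. A member counts as called at an adjusted p under 0.05 over all genes of that fit. No adjustment was made over the 16 fits. Differences are log2 fold changes of injured over uninjured fathers, and their standard errors (SE) are derived from the test statistic. With 2 libraries against 2 an exact permutation test has 6 splits and cannot give a p under 0.333, so calls rest on a spread shared across genes.

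Few members passed in any group of nuclei. Mmp12 in macrophage- or monocyte-like nuclei and Adamtsl1 in vascular endothelial cluster 6 were called, both lower with injured fathers. In fibroblast-like nuclei 0 of the 36 members tested were called, against 0.0241% of all genes tested. An unadjusted p under 0.05 was reached by 4 of the 36 (2.98% of all genes). Their median log2 fold change was -0.05 (all genes 0.00), with 15 above and 21 below 0. The 5 members whose libraries did not overlap and were higher, and the 8 that were lower, compare with 12.6% and 16.4% of all genes. The other 15 members, 12 of them Mmp genes, did not pass the filter on low counts.

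By the same test, 0 of 30 members were called in fibroblast cluster 1 (0.0183% of all genes), 0 of 29 in cluster 4 (0.0202%), 0 of 28 in cluster 7 (0.01%) and 0 of 18 in cluster 20 (0.113%). At an unadjusted p under 0.05 these clusters had 7 (2.61% of all genes), 4 (4.33%), 4 (3.73%) and 0 members (4.25%). In cluster 7 no member had non-overlapping libraries that were higher (15.2% of all genes) and 8 of 28 had ones that were lower (16.7%). The members' median there was -0.13, with 6 above and 22 below 0. In cluster 1 it was -0.14, with 9 above and 21 below.

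Vascular endothelial-like nuclei had 0 of 29 members called (0.0177% of all genes) and 3 at an unadjusted p under 0.05 (5.39%). Their cluster 2 had 0 of 24 (0.0206%) and 3 (4.01%), cluster 9 had 0 of 17 (0.0126%) and 3 (4.8%), and cluster 6 had 1 of 22 (0.0711%) and 2 (5.0%). Cardiomyocyte-like nuclei had 0 of 29 (0.016%) and 4 (4.01%), pericyte-like 0 of 24 (0.0598%) and 1 (4.32%), and endocardial-like 0 of 18 (0.0723%) and 0 (5.06%). Smooth muscle-like nuclei had 0 of 17 (0% of all genes) and 1 (3.8%), and B lymphocyte-like 0 of 7 (0%) and 0 (2.92%). Macrophage- or monocyte-like nuclei had 1 of 21 (0.108%) and 6 (6.08%). DESeq2, run on the same sums, called 0 members in each of the 16 fits.

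**Figure D3:**
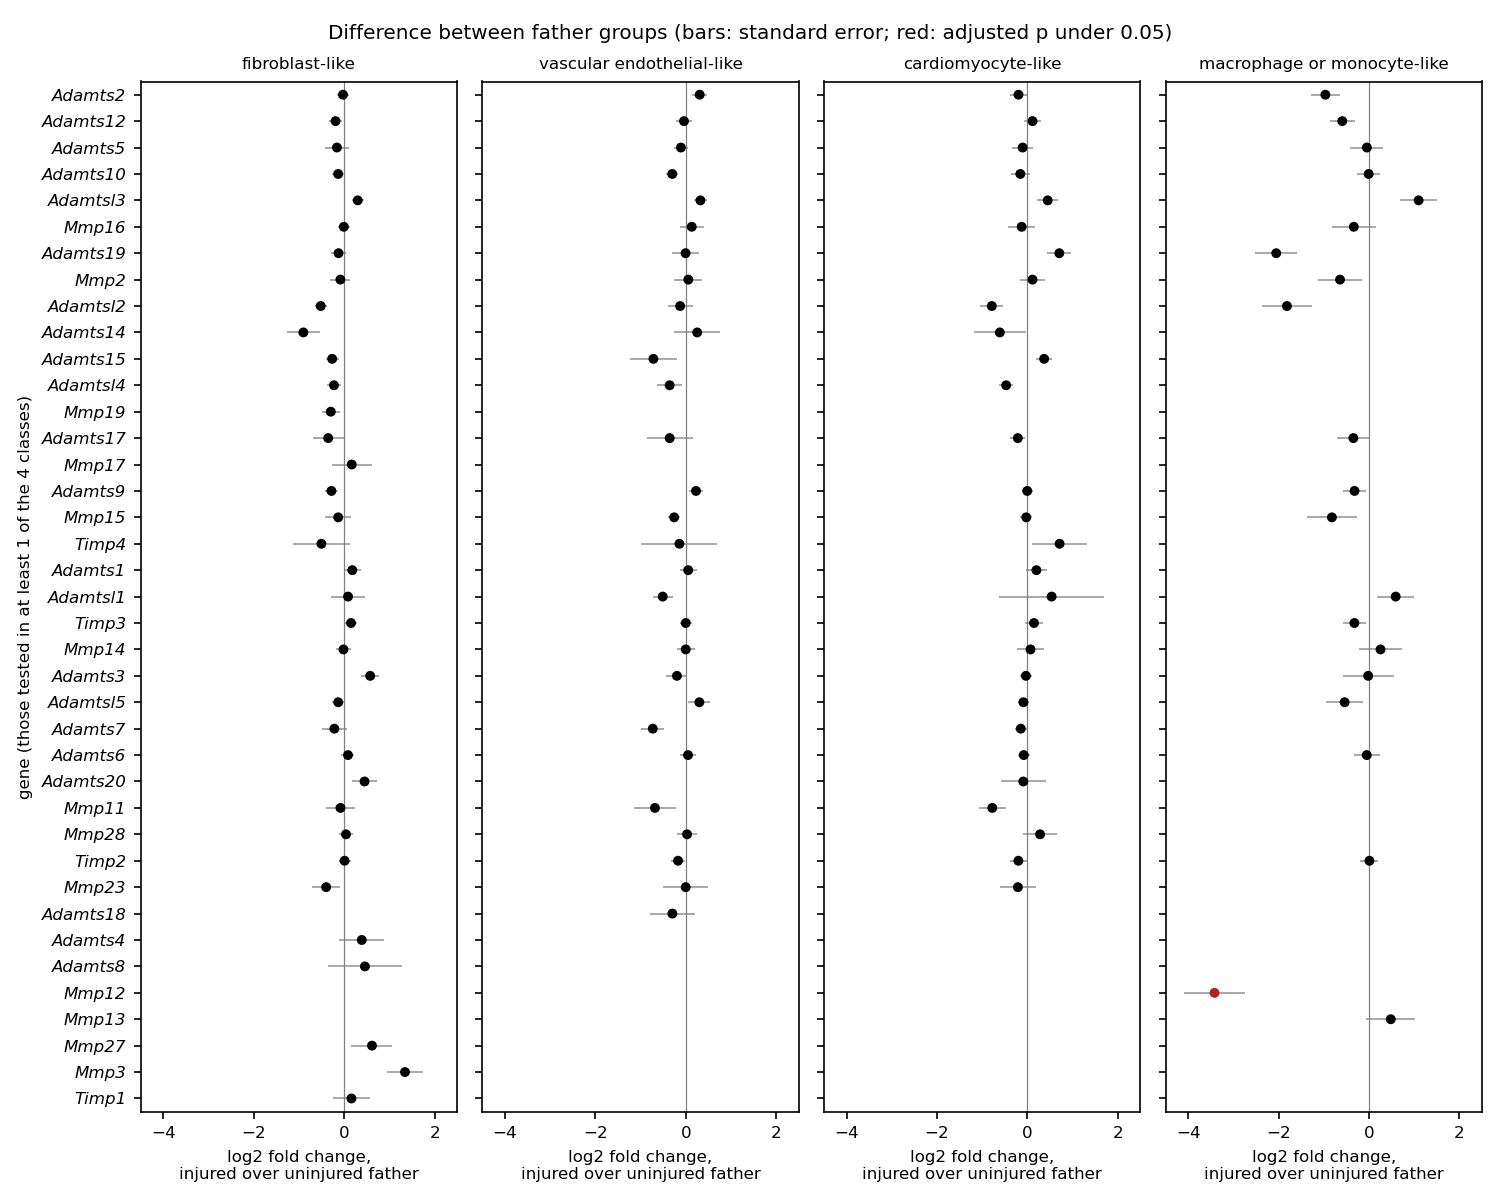
Log2 fold change of injured over uninjured fathers (x axis) for each member tested (y axis) in 4 classes of nuclei, with bars of 1 standard error and the value past an adjusted p of 0.05 in red. Mmp12 in macrophage- or monocyte-like nuclei is the red point, and the fibroblast-like values other than Mmp3 lie between -1 and 1.

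Mmp12, the macrophage elastase, lies on chromosome 9 from 7344381 to 7369499. Of its 56 UMIs, 43 lay in macrophage- or monocyte-like nuclei, where it was at 0, 5.65, 25.8 and 49.3 CPM in library order. Both injured-father libraries lay below both uninjured-father libraries (log2 fold change -3.42, SE 0.68, edgeR adjusted p = 0.0276), where the fitted size depends on the count added to the library at 0. The counts were small, at 0, 5, 18 and 20 UMIs. They came from 0 of 381, 4 of 416, 3 of 385 and 3 of 270 nuclei, so the number of nuclei with a UMI did not follow the father groups. In exact 95% binomial intervals, which cover counting error only, these shares were 0.962% (0.263 to 2.44), 0.779% (0.161 to 2.26) and 1.11% (0.230 to 3.21). By the limit of 3 counts, 0 of 381 allows a share of nuclei with a UMI of up to 0.787%, which does not limit the share of nuclei expressing the gene.

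A single nucleus held 11 of the 18 Mmp12 UMIs of uninjured-father library 1 and another held 16 of the 20 of uninjured-father library 2, while no nucleus of injured-father library 2 held more than 2. Cardiomyocyte-like nuclei, which should lack the gene, had an Mmp12 UMI in 1 of 1910, 0 of 2530, 1 of 2880 and 0 of 2121 nuclei at a median of 3141 to 5024 UMIs per nucleus, against 1269 to 1784 UMIs in macrophage- or monocyte-like nuclei. When each nucleus counted at most once per gene, Mmp12 had too few counts to be tested. The call was lost without uninjured-father library 2 (adjusted p = 0.249), with doublets kept (0.707), with nuclei of at least 1000 UMIs (0.0676), in an unscaled clustering (0.275) and by DESeq2 (0.365). Mmp1b overlaps the end of Mmp12 on the opposite strand and had 1 UMI in all.

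Most other members measured in macrophage- or monocyte-like nuclei lay below 0 without being called. The median log2 fold change of the 21 tested was -0.32 (all genes -0.01), with 5 above and 16 below 0. Non-overlapping libraries were lower in 9 (18.6% of all genes) and higher in 1 (16.3%). Adamts19 was at 7.22, 12.4, 34.4 and 54.3 CPM (log2 fold change -2.05, SE 0.47, edgeR adjusted p = 0.0772), and 1 nucleus of uninjured-father library 2 held 14 of its UMIs. With the members left out of clustering its adjusted p was 0.0422. Adamtsl2 stood at 5.77, 9.05, 34.4 and 17.3 CPM, and Adamts2 at 31.8, 43.0, 93.2 and 49.3 CPM (edgeR adjusted p = 0.306 and 0.485). All 3 genes were highest in fibroblast-like nuclei, and the summed level of 10 fibroblast markers (10 of 10 detected) in macrophage- or monocyte-like nuclei was 696, 906, 1065 and 730 CPM. Its part in these values was not tested. Adamtsl3, the 1 member with higher non-overlapping libraries, was at 30.3, 71.2, 25.8 and 22.2 CPM (adjusted p = 0.652). Mmp13, or collagenase 3, was found in 7 of 381, 14 of 416, 4 of 385 and 7 of 270 nuclei (14.4, 23.7, 8.60 and 22.2 CPM), which overlap between the groups. Cardiomyocyte-like nuclei had it in 0 of 1910, 2 of 2530, 1 of 2880 and 0 of 2121.

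Adamtsl1, a secreted matrix protein also called punctin, lies on chromosome 4 from 85514172 to 86428385, and Sh3gl2 overlaps it on the same strand. In vascular endothelial cluster 6 it was at 195, 199, 377 and 327 CPM, on 152, 356, 382 and 180 UMIs. Both injured-father libraries lay below both uninjured-father ones (log2 fold change -0.82, SE 0.15, edgeR adjusted p = 0.0251). The highest count in 1 nucleus was 18, 19, 21 and 11 UMIs in library order. The call was lost without injured-father library 1 (adjusted p = 0.0579), without injured-father library 2 (0.0661), without uninjured-father library 1 (0.184), with members left out of clustering (0.0566), with each nucleus counted at most once (0.323) and by DESeq2 (0.203), with log2 fold changes between -0.83 and -0.67. Lymphatic endothelial-like nuclei had the highest Adamtsl1, and the sum of 6 lymphatic markers (6 of 6 detected) in cluster 6 was 93.9 and 106 CPM with injured and 69.0 and 83.7 CPM with uninjured fathers. Its part in the difference was not tested. In the same cluster Mmp15 was at 61.5, 60.4, 89.8 and 98.2 CPM, without being called (adjusted p = 0.789).

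In fibroblast-like nuclei the members with the smallest p were Adamtsl2 and Mmp3. Adamtsl2 was at 136, 159, 202 and 230 CPM (log2 fold change -0.52, SE 0.14, edgeR adjusted p = 1), with both injured-father libraries below both others. In cluster 1 alone it was at 128, 106, 188 and 204 CPM (log2 fold change -0.73, SE 0.15, edgeR adjusted p = 0.394). It was at 192, 236, 300 and 296 CPM in cluster 4 and at 106, 144, 142 and 260 CPM in cluster 7, where the groups overlap. Mmp3, or stromelysin 1, was at 5.52, 10.7, 3.0 and 3.77 CPM on 132 UMIs (log2 fold change 1.35, SE 0.40, adjusted p = 1).

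Of the procollagen N-proteinases, Adamts3 was at 51.2, 72.8, 46.1 and 38.0 CPM in fibroblast-like nuclei and Adamts14 at 72.6, 33.0, 94.1 and 104 CPM (log2 fold changes 0.57, SE 0.19, and -0.90, SE 0.37, both adjusted p = 1 by edgeR). Injured-father library 2 was the highest for Adamts3 and the lowest for Adamts14. Without injured-father library 1, injured-father library 2 is the only one of its group. Adamts3, Adamts14 and Mmp3 then passed the threshold, but that fit has no spread between injured-father libraries to estimate. Adamts2, the third of these enzymes, was nearly level at the 643, 641, 682 and 645 CPM given above (log2 fold change -0.03). Adamtsl3 was at 525, 464, 421 and 393 CPM and Adamts9 at 96.8, 105, 113 and 138 CPM (log2 fold changes 0.30 and -0.28, adjusted p = 1 for both). Mmp2, Mmp14, Adamts5 and the 4 Timp genes overlapped between the father groups in fibroblast-like nuclei. A list of 10 immediate early and heat shock genes (10 of 10 detected), which respond quickly to stress, summed to 178, 189, 115 and 156 CPM in fibroblast-like nuclei. Of these, 7 were tested, 0 were called (0.0241% of all genes) and 3 had an unadjusted p under 0.05 by edgeR (2.98%). All 7 lay above 0, at a median log2 fold change of 0.50 (all genes -0.002). In cluster 4 all 5 tested lay above 0 (median 1.06), in cluster 1 all 5 (median 0.32), and in cluster 7 2 lay above and 3 below. The part of this list in the members' values was not tested.

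**Figure D4:**
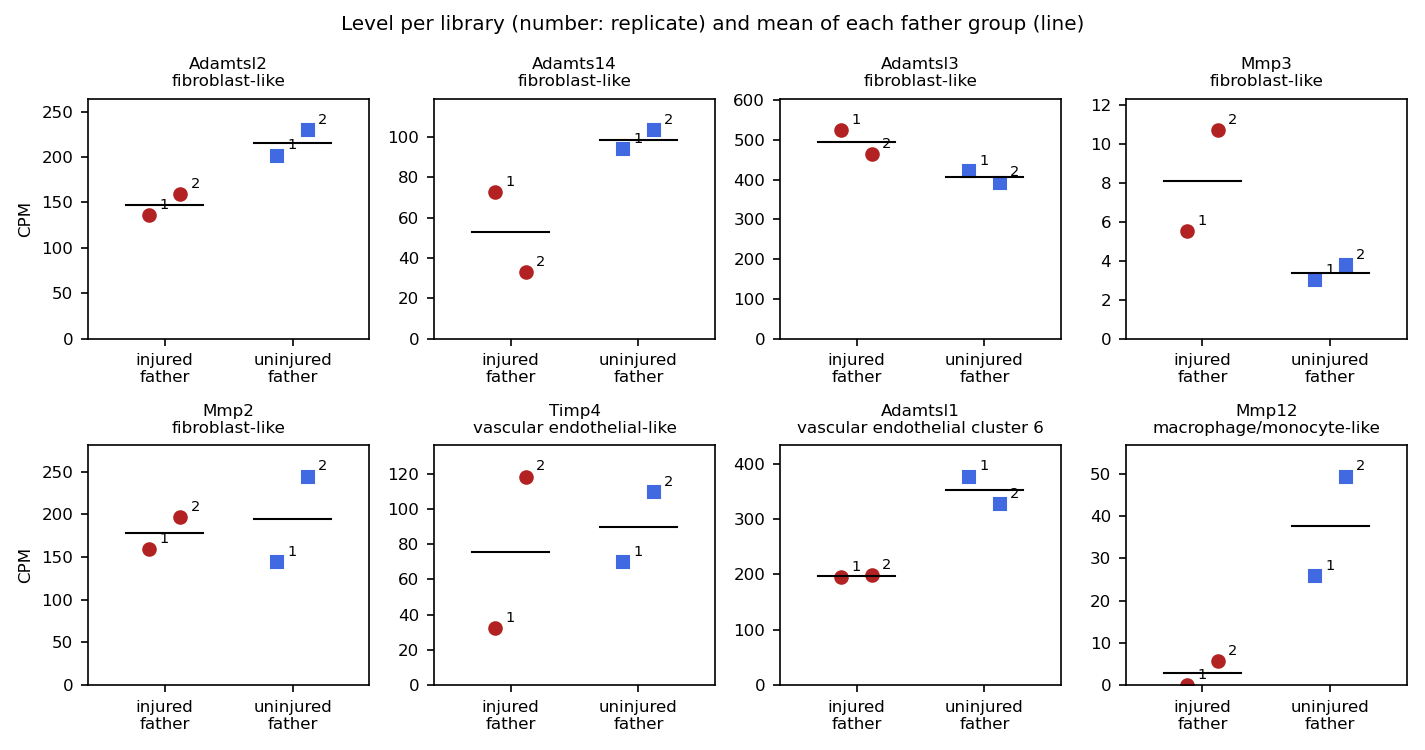
CPM per library (points, numbered by replicate) and mean of each father group (line) for 8 members in the named nuclei, each on its own linear axis from 0. Adamtsl2, Adamts14, Adamtsl1 and Mmp12 are lower and Adamtsl3 and Mmp3 higher in both injured-father libraries, while Mmp2 and Timp4 overlap and are high in the libraries numbered 2.

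Differences of the father effect between fibroblast-like and other nuclei were tested directly as an interaction. None was called among 35 members against vascular endothelial-like, 33 against macrophage- or monocyte-like and 37 against cardiomyocyte-like nuclei (0% of all genes in each, edgeR). An unadjusted p under 0.05 was reached by 4 (5.53% of all genes), 3 (5.16%) and 4 members (4.34%). Adamts19 had the smallest adjusted p, 0.166, for fibroblast- against macrophage- or monocyte-like nuclei (difference in log2 fold change 1.85, SE 0.43). A difference between these classes was thus not shown for any member. On simulated fibroblast- and vascular endothelial-like sums this test recovered 28% of 100 genes changed 2-fold and 91% of 100 changed 4-fold. Smaller differences can therefore be missed. The changed genes were drawn above a minimum expected count, every gene had the same dispersion, and the 2 classes shared no library effect. Interactions with macrophage- or monocyte-like and cardiomyocyte-like nuclei were not simulated, so these rates do not cover them. DESeq2 was not run on the interactions.

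Other values that did not overlap stayed short of the threshold. In cardiomyocyte-like nuclei Adamts19 was at 27.3, 28.8, 21.6 and 12.2 CPM (log2 fold change 0.71, SE 0.26, edgeR adjusted p = 1). Cluster 11, which carries most of it, made up 9.74%, 12.3%, 6.56% and 2.45% of cardiomyocyte-like nuclei. Cluster 5, where Adamts19 was low, made up 14.7%, 11.8%, 13.8% and 44.8%. Uninjured-father library 2 thus differed in make-up from the other libraries in every comparison of cardiomyocyte-like nuclei. The part of these shares in the difference was not tested. In pericyte-like nuclei Adamts2 was at 267, 290, 213 and 208 CPM (log2 fold change 0.43, SE 0.14, adjusted p = 1.00). In vascular endothelial cluster 9 Adamts17 was at 16.9, 20.9, 58.2 and 46.5 CPM (log2 fold change -1.42, SE 0.34, edgeR adjusted p = 0.324). Adamts9 was there at 991, 1341, 905 and 851 CPM (log2 fold change 0.45, edgeR adjusted p = 0.986).

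Summed over all nuclei, 0 of 43 members were called (0.222% of all genes, 0 by DESeq2) and 9 had an unadjusted p under 0.05 (7.02%). Non-overlapping libraries were higher in 6 (20.5% of all genes) and lower in 12 (14.2%), and the median was -0.06 (all genes -0.01). A sum over all nuclei cannot tell fewer nuclei of a class from less RNA per nucleus. Adamtsl2 was at 34.2, 41.1, 51.9 and 59.7 CPM and Adamtsl4, a fibrillin-binding protein, at 36.1, 42.8, 52.4 and 58.7 CPM (edgeR adjusted p = 0.247 and 0.312). By the same test Mmp12 had an adjusted p of 0.425, and Mmp3, at 1.23, 3.01, 0.794 and 0.831 CPM, one of 0.553. Leaving out 1 injured-father library leaves no spread between injured-father libraries to estimate, so p-values of those fits are not given here. Adipocyte-like nuclei made up 2.10%, 1.21%, 0.191% and 0.103% of nuclei and mesothelial-like nuclei 0.654%, 0.650%, 0.0956% and 0.0884%. Their part in the sums over all nuclei was not tested.

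The proteins around these families were read from 4 lists with 52 genes of other inhibitors, activators, other proteases and substrates. In fibroblast-like nuclei 43 were tested and 0 were called by edgeR (0.0241% of all genes) or by DESeq2. An unadjusted p under 0.05 by edgeR was reached by 2 (2.98% of all genes). Tll1, a relative of the procollagen C-proteinase, was at 4.88, 7.52, 3.31 and 1.16 CPM (log2 fold change 1.36, SE 0.46, edgeR adjusted p = 1.00). Postn, the injury-induced matrix protein periostin, was at 204, 148, 214 and 255 CPM (log2 fold change -0.39, SE 0.16, adjusted p = 1.00). Of the substrates, 4 of the 15 tested lay above 0 and 11 below, at a median of -0.06 (all genes -0.002). Pcsk6, a proprotein convertase of the kind that activates Adamts proteases, was at 1009, 1049, 1047 and 1174 CPM, and Serpine2, an inhibitor of plasminogen activators, at 74.3, 78.1, 65.8 and 67.8 CPM. The 8 activators tested had 4 above and 4 below 0, and the 7 other inhibitors 4 above and 3 below.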

How the data were processed

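Cell Ranger 6.0.1 produced the deposited matrices, per the file headers, and the submitters' processing notes also name Seurat 4.0. The deposited values are raw UMI counts of the authors per gene and barcode, without normalization, from 3′ droplet libraries. The genome build and annotation used for counting are not given in the sources used, and positions come from GENCODE M21 (GRCm38). The files hold 39696 barcodes, with at least 500 UMIs each.

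Nuclei needed at least 500 UMIs, at least 300 genes and under 5% mitochondrial UMIs, and Scrublet doublets were taken out (scanpy 1.11.5). Leiden clustering (leidenalg 0.10.2, resolution 1.0) ran on 30 principal components of 3000 variable genes ranked within libraries, scaled with a cap of 10. This setting was chosen after the clusters of 4 settings were seen, before any test between father groups. The first one run, unscaled and with variable genes ranked over all nuclei, gave 21 clusters with 2 fibroblast-like ones, and the one used was taken for its finer division of the fibroblast-like nuclei. Clusters took the name of the best of 17 marker lists, with at least 3 markers detected. A cluster stayed unnamed where erythroid or neutrophil markers scored best, or where a second list scored at least 2 and over 0.333 of the best, a rule set after the clusters were seen. Unnamed nuclei were 1.99%, 2.13%, 1.79% and 0.854% in library order.

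Counts were summed per library. Low genes were dropped by filterByExpr at a minimum count of 10. After TMM scaling, edgeR 4.0.16 (R 4.3.3, quasi-likelihood, robust) tested father groups two-sided with Benjamini-Hochberg adjustment. SE is the absolute log2 fold change over the square root of the F statistic. DESeq2 1.42.0 was an alternative. The fit was tested on simulated data. The library is the replicate.

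The members and gene lists were chosen with earlier results of these data known. Named are members past the threshold, otherwise up to 3 per direction and fit with the smallest p among those whose groups do not overlap (2 per direction outside all nuclei, fibroblast- and macrophage- or monocyte-like nuclei), and members with at least 200 UMIs for levels, with Timp1 to Timp4, Mmp2, Mmp9, Mmp14, Adamts1, Adamts2, Adamts5 and Adamts9 always allowed. Other genes named for their low counts or position (the chromosome 9 genes, Adamts4 and Adamts8) and Mmp13 in macrophages were chosen after their values were seen.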

Additional observations from a re-analysis of the deposited data

How the results depend on the processing

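Calls among the members were few and moved with the settings. Over all nuclei edgeR called 0 members, 1 with no filter on low counts and 0 to 5 with 1 library left out. Over the 8 classes it called 1, 4 with no filter, 2 with the members left out of clustering, 0 by DESeq2, with doublets kept, with at least 1000 UMIs per nucleus (7 classes), in an unscaled clustering or with each nucleus counted once per gene, and 1 to 6 with 1 library left out. Over the 7 clusters it called 1, 4 with no filter, 0 by DESeq2, with members left out of clustering (6 clusters) or with each nucleus counted once, and 0 to 9 with 1 library left out. Interactions gave 0, 2 with no filter and 0 to 3 with 1 library left out. Over all genes and 16 fits, 79 calls became 485 with no filter, 144 by DESeq2, 35 with each nucleus counted once, and 110 to 842 with 1 library left out. The unscaled clustering was the first one run and was set aside for the one used after its clusters were seen; it and the count of each nucleus once were listed as alternatives after the data were seen. RLE scaling changed no member call. Calls over all genes also moved with the settings, and the member counts are not set against them fit by fit. They therefore cannot show whether members were called more often than other genes. A fit with 1 library left out has 1 library in a father group and no spread to estimate there. The cause of these changes was not tested.

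With the replicate numbers as a replicate block, 2 members were called over all nuclei, 2 over the classes and 4 over the clusters, and 351 calls were made over all genes. These member counts too are not set against the share of all genes in each fit, so they cannot show an excess among members. Deviations of same-numbered libraries were little correlated (from -0.03 to 0.105). These are correlations over genes and not over hearts, so they cannot show whether the numbers pair the hearts. The sources used here do not say.

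Of 768 alternative values for 62 named differences, 728 kept their direction and side of the threshold, 27 newly passed it, 11 lost it and 2 turned. The latter were Adamtsl1 in endocardial-like nuclei (-0.12 unscaled, against 0.72) and Adamts1 in vascular endothelial cluster 6 (-0.16 with members left out of clustering, against 0.33). The highest class stayed the same for 30 to 31 of 31 members with 1 library left out. Vascular endothelial cluster 9 had no counterpart with doublets kept or unscaled, fibroblast cluster 20 none with doublets kept, with members left out of clustering or unscaled, and fibroblast cluster 7 none unscaled, so they were not run there.

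Depth limits the members under 200 UMIs, most of them secreted Mmp genes, for which a low count cannot show absence. Rare transcripts in 1 nucleus can carry a sum over a small class, and with 2 hearts per group a difference between individual hearts and one between father groups are hard to tell apart.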
